A study of Mus musculus with 8 samples.

Results

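Interferon gamma, its regulators in T helper 1 (Th1) and CD8 T cells, and Csf2 were described here as a set of 10 genes. Chosen by name, these were Ifng, Tbx21, Eomes, Stat4, Il12rb1, Il12rb2, Il18r1, Il18rap, Runx3 and Csf2. All 10 were measured, each by 1 probe set, among 19505 named genes on the arrays. The data comprised 8 Affymetrix expression arrays of splenic T cells from male wildtype C57BL/6 mice, with 4 arrays of cells kept with human beta-defensin-2 (hBD-2, an antimicrobial peptide of epithelial surfaces) and 4 of cells kept with the vehicle PBS. All cells, the PBS cells included, were untouched CD4 and CD8 T cells in 1 mixture, stimulated with beads that engage CD3 and CD28 and cultured for 48 h. The dose of hBD-2 is labelled 60 µL/mL, from which no mass concentration follows. The labels name 4 mice for the 8 arrays without tying arrays to mice. If these are all the mice, arrays share animals, across the groups or within them. The p-values therefore measure the spread between these arrays and not between animals. Values are the deposited log2 expression values, and each ± is the SD over 4 arrays a group.

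Interferon gamma is the cytokine by which Th1, CD8 and natural killer (NK) cells activate macrophages and raise antigen presentation. In T cells, interleukin-12 acts through its receptor chains Il12rb1 and Il12rb2 and the transcription factor Stat4, and interleukin-18 acts through Il18r1 and its accessory chain Il18rap. Both signals act on Ifng together with the T-box factors T-bet (Tbx21) and Eomesodermin (Eomes) and the Runt factor Runx3. Csf2 encodes the growth factor GM-CSF, a further cytokine of activated T cells.

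The promoters of 4 of the genes are shown because the results contrast the pair that fell, Ifng and Il18rap, with genes that did not pass the test, here Csf2 as the other cytokine and Il12rb2 as the other cytokine receptor. Each runs from 250 bases before to 50 bases after the start of the gene, 5′ to 3′ on the strand of the gene, as RefSeq gives it for the build GRCm38.p6. They lie at chr10:118440796-118441095 (Ifng, plus strand), chr1:40515112-40515411 (Il18rap, plus strand), chr11:54249850-54250149 (Csf2, minus strand) and chr6:67376139-67376438 (Il12rb2, minus strand). Capitals mark every match, on either strand, to a T-box half-site (TCACAC), a STAT site (TTCNNNGAA), a RUNX site (TGTGGT), an NFAT core (GGAAA), an AP-1 site (TGANTCA) or a TATA box (TATAAA).
Ifng: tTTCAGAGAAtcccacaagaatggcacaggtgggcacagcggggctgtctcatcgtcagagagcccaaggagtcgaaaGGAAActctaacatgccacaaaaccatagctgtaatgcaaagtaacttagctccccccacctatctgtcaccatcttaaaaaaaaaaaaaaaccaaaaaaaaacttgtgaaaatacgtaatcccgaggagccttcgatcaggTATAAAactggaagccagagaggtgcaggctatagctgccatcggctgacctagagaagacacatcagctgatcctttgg
Il18rap: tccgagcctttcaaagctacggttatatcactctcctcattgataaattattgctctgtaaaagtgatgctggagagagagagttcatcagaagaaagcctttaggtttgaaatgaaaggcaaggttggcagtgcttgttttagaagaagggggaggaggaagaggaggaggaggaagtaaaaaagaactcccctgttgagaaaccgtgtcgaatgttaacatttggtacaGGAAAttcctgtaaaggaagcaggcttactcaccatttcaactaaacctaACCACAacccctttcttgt
Csf2: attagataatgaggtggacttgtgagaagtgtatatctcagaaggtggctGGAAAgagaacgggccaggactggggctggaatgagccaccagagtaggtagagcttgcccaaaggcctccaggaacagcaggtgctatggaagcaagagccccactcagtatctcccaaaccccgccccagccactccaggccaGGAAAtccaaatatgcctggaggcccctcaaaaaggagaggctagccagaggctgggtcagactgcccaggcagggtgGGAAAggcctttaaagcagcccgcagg
Il12rb2: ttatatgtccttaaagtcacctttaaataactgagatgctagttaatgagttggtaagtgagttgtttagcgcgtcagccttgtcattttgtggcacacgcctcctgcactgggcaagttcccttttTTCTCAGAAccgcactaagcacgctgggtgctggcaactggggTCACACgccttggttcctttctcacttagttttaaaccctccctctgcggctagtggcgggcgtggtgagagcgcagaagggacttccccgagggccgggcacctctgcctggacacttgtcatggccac
In the Ifng promoter the STAT letters began 249 bases, the NFAT core 172 bases and the TATA box 30 bases before the start. The Il18rap promoter held an NFAT core 19 bases before the start and a RUNX site 32 bases after it. The Csf2 promoter held 3 NFAT cores and no other of these motifs, and the Il12rb2 promoter held a STAT site and, 80 bases before the start, the T-box half-site. Among 32544 mouse promoters of this length, 14.3% held the T-box half-site, 8.33% the STAT site, 16.7% the RUNX site, 61.5% the NFAT core, 7.79% the AP-1 site and 13.6% the TATA box. Of the 10 genes, 9 had promoters in this table, 13 promoters in all, and Il12rb1 had none there. STAT letters occurred in the promoters of 3 of these genes (Ifng, Il12rb2 and Il18r1) and RUNX letters in 3 (Il18r1, Il18rap and Runx3). No overlap occurred between different motifs in the printed sequences. The matches describe letters in these windows.

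The array medians lay between 5.30 and 5.42 log2 units and the lower quartiles between 3.62 and 3.78. The interquartile range of an array was 3.53 ± 0.0936 with hBD-2 and 3.68 ± 0.0549 with PBS (exact permutation test, two-sided, p = 0.0571, n = 4), hBD-2 replicates 3 and 4 being the narrowest at 3.45 and 3.46. Its part in the results was not tested beyond leaving out both of those arrays and rescaling all arrays. The labelled cell type was borne out by the level of its markers: the mean log2 level of 11 T cell markers on an array was 10.5 to 10.6 in both groups. None of the 11 passed the test between the groups in either direction. Cd247 passed as higher with quantile normalization repeated, cyclic loess, the level trend removed or a trended and robust variance, and Cd28 as lower with the last of these. Cd3e, a chain of the T cell receptor complex, was at 11.5 ± 0.0356 with hBD-2 and 11.5 ± 0.0329 with PBS. Cd4 was at 9.81 ± 0.147 with hBD-2 and 9.77 ± 0.0989 with PBS, while Cd8a was at 10.8 ± 0.0417 with hBD-2 and 10.7 ± 0.0410 with PBS and Cd8b1 at 11.2 ± 0.0281 with hBD-2 and 11.1 ± 0.0776 with PBS (limma adjusted p = 0.888, 0.390 and 0.611). In such bulk RNA, fewer cells of a type and less RNA per cell cannot be told apart.

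With hBD-2, transcripts of Ifng and of the interleukin-18 receptor accessory chain Il18rap fell, by 1.48 and 1.01 on the log2 scale, which is 2.78-fold and 2.01-fold lower. None of the 10 genes rose, and the remaining 8, among them every transcription factor of the set and both chains of the interleukin-12 receptor, did not pass the test. Thus 2 of 10 genes passed, against 4.46% of all 19505 genes, both of them lower, against 3.66% of all genes, and none higher, against 0.8% of all genes (limma with Benjamini-Hochberg adjustment over all genes, threshold 0.05). With quantile normalization repeated the calls over all genes were 227 higher and 521 lower (69.7% lower), in place of 156 higher and 713 lower (82.0%), and the set still had 2 lower and 0 higher. The groups did not overlap in the same 2 of 10 genes, against 9.36% of all genes with every hBD-2 array below every PBS array. The median log2 fold change was -0.23 over the set and 0.02 over all genes. The log2 fold changes of the 8 genes that did not pass ran from -0.58 to 0.11.

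**Figure D1:**
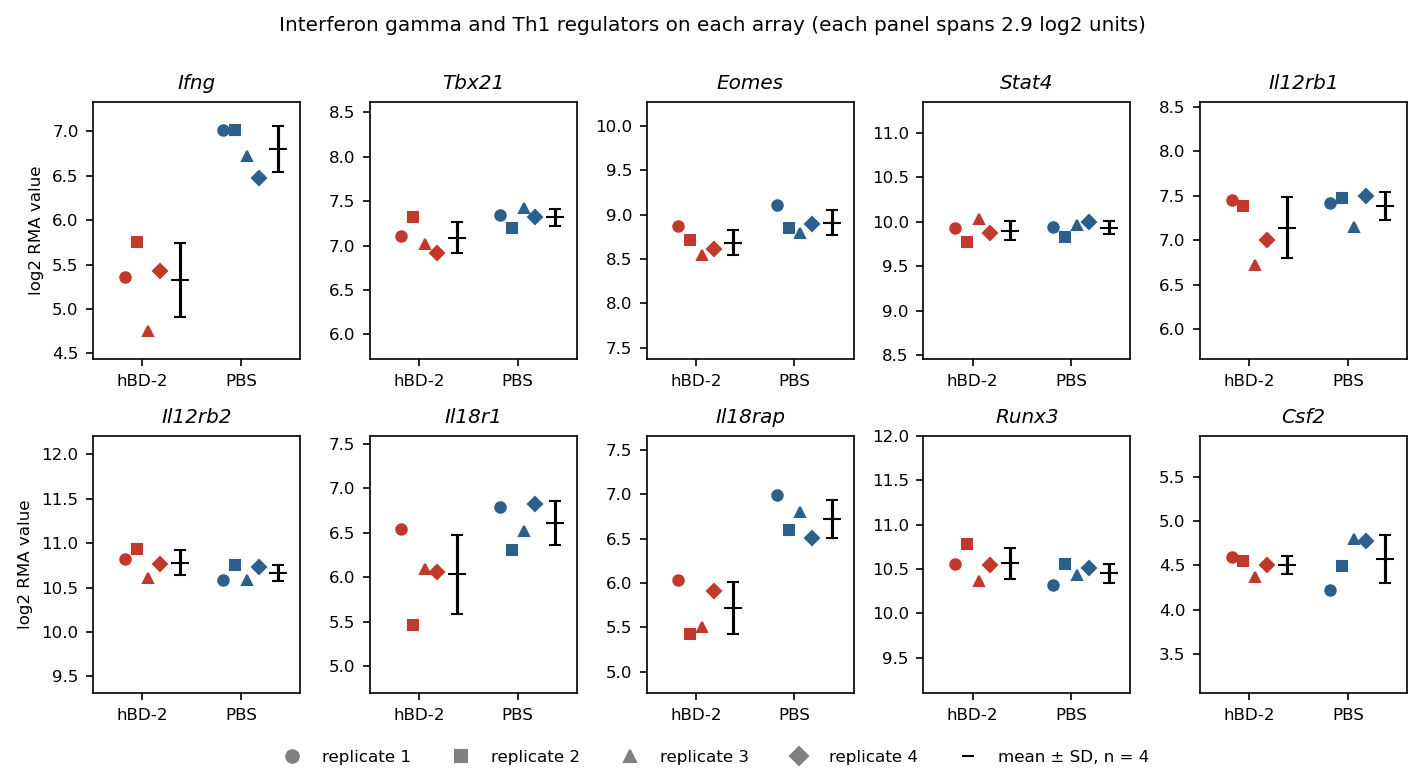
Deposited log2 RMA values (y axis) of the 10 genes on the 4 hBD-2 arrays (red, left) and the 4 PBS arrays (blue, right), with the replicate number as the marker and mean ± SD as black bars. Every panel spans the same height, and the groups stand apart for Ifng and Il18rap, while they overlap in the other 8 panels.

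Ifng was at 5.36, 5.76, 4.76 and 5.43 log2 units on hBD-2 arrays 1 to 4, against 7.01, 7.01, 6.72 and 6.47 on PBS arrays 1 to 4. The highest hBD-2 array lay below the lowest PBS array, and hBD-2 replicate 3 was the lowest of all. The means were 5.33 ± 0.418 with hBD-2 and 6.80 ± 0.260 with PBS (log2 fold change -1.48, SE 0.194, 95% interval -1.90 to -1.05, limma adjusted p = 0.00204); such intervals are not adjusted for the number of genes. Ifng ranked the fifteenth among the genes that fell when these are ordered by log2 fold change. Its call held in all 8 fits that left out an array, with log2 fold changes between -1.62 and -1.29 and limma adjusted p between 0.00159 and 0.0101. Without hBD-2 replicates 3 and 4 together the log2 fold change was -1.24 (limma adjusted p = 0.0233). All hBD-2 values stood above the lower quartiles of the arrays. A lower quartile is not a detection limit and no detection calls were used, so whether any value lay at the floor was not tested. The RMA procedure compresses changes of dim genes.

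The 2 chains of the interleukin-18 receptor lay on the same side with unequal size. Il18rap, the accessory chain needed for signalling, was at 6.03, 5.42, 5.51 and 5.90 log2 units on hBD-2 arrays 1 to 4, against 6.99, 6.60, 6.80 and 6.51 on PBS arrays 1 to 4. The groups did not overlap, and the gap between the nearest arrays was 0.48 log2 units. The means were 5.72 ± 0.296 with hBD-2 and 6.72 ± 0.216 with PBS (log2 fold change -1.01, SE 0.153, limma adjusted p = 0.00480, between 0.00385 and 0.0205 in the 8 fits that left out an array). Without hBD-2 replicates 3 and 4 together its log2 fold change was -0.997 and the call was lost (limma adjusted p = 0.0658).

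Il18r1, the chain that binds interleukin-18, was at 6.54, 5.46, 6.09 and 6.05 log2 units on hBD-2 arrays 1 to 4, against 6.79, 6.31, 6.51 and 6.83 on PBS arrays 1 to 4. The groups overlapped through hBD-2 replicate 1, which lay above PBS replicates 2 and 3, while hBD-2 replicate 2 was the lowest by far. Il18r1 did not pass the test (6.03 ± 0.444 with hBD-2 and 6.61 ± 0.246 with PBS, log2 fold change -0.58, 95% interval -1.01 to -0.14, limma adjusted p = 0.121), and it was the gene nearest to the threshold among those that missed it, as Il18rap was among those that passed. Without hBD-2 replicate 1 its log2 fold change was -0.74 and it passed (limma adjusted p = 0.0355). It also passed with the replicate number as a block (limma adjusted p = 0.0384) and with a trended and robust variance (limma adjusted p = 0.0319). Of the other interleukin-1 receptor family genes of this cluster, none of 3 measured passed. Il1r1, the signalling receptor of interleukin-1, was at 3.74 ± 0.0813 with hBD-2 and 3.51 ± 0.0445 with PBS. The decoy receptor gene Il1r2 was at 4.62 ± 0.125 with hBD-2 and 4.76 ± 0.173 with PBS, and Il1rl2, a receptor chain for interleukin-36, at 4.18 ± 0.239 with hBD-2 and 4.47 ± 0.290 with PBS (limma adjusted p from 0.145 to 0.490 for these 3). Il1rl1 was not analysed here.

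The receptor and signal transducer of interleukin-12 did not pass in either direction. Il12rb2, the inducible chain that is typical of Th1 cells, was at 10.83, 10.93, 10.60 and 10.77 log2 units on hBD-2 arrays 1 to 4, against 10.59, 10.76, 10.59 and 10.73 on PBS arrays 1 to 4. Its mean was slightly higher with hBD-2, 10.8 ± 0.137 with hBD-2 and 10.7 ± 0.0898 with PBS (log2 fold change 0.11, 95% interval -0.10 to 0.33, limma adjusted p = 0.534), so a fall of the size seen for Ifng lay outside its interval. Il12rb1, the chain shared with the interleukin-23 receptor, was at 7.45, 7.39, 6.72 and 7.00 log2 units with hBD-2, against 7.41, 7.48, 7.15 and 7.50 with PBS, arrays in the order 1 to 4. hBD-2 replicates 3 and 4 were its 2 lowest arrays, and without both of them its log2 fold change of -0.24 (95% interval -0.59 to 0.10, limma adjusted p = 0.386) became 0.033.

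Stat4, which carries the interleukin-12 signal to the nucleus, was at 9.93, 9.77, 10.03 and 9.87 log2 units on hBD-2 arrays 1 to 4, against 9.94, 9.83, 9.97 and 9.99 on PBS arrays 1 to 4. The groups overlapped almost entirely, at 9.90 ± 0.108 with hBD-2 and 9.93 ± 0.0700 with PBS (log2 fold change -0.03, 95% interval -0.23 to 0.17, limma adjusted p = 0.866). The sign turned with quantile normalization repeated (0.047), cyclic loess (0.047) and the level trend of each array removed (0.039), so no direction is given for Stat4.

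The transcription factors of the type 1 programme showed small differences. Tbx21, the master regulator T-bet, was at 7.11, 7.32, 7.02 and 6.91 log2 units on hBD-2 arrays 1 to 4, against 7.34, 7.20, 7.43 and 7.32 on PBS arrays 1 to 4. Only hBD-2 replicate 2 reached into the PBS range, and the means were 7.09 ± 0.173 with hBD-2 and 7.32 ± 0.0952 with PBS (log2 fold change -0.23, 95% interval -0.46 to 0.0029, limma adjusted p = 0.230). Eomes, the related T-box factor prominent in CD8 and NK cells, was at 8.87, 8.72, 8.54 and 8.61 log2 units on hBD-2 arrays 1 to 4, against 9.10, 8.85, 8.79 and 8.90 on PBS arrays 1 to 4. Its groups overlapped through hBD-2 replicate 1 alone (8.69 ± 0.143 with hBD-2 and 8.91 ± 0.136 with PBS, log2 fold change -0.23, 95% interval -0.46 to 0.0079, limma adjusted p = 0.240). The means of both T-box genes were thus 1.17-fold lower with hBD-2 and neither passed. Without hBD-2 replicates 3 and 4 together the log2 fold changes were -0.10 for Tbx21 and -0.12 for Eomes.

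Runx3, which establishes the CD8 lineage and acts with T-bet at Ifng, was at 10.56, 10.78, 10.36 and 10.55 log2 units on hBD-2 arrays 1 to 4, against 10.32, 10.56, 10.43 and 10.51 on PBS arrays 1 to 4. The means were 10.6 ± 0.173 with hBD-2 and 10.5 ± 0.106 with PBS (log2 fold change 0.11, 95% interval -0.13 to 0.34, limma adjusted p = 0.598), and the groups overlapped. The 95% intervals of Tbx21, Eomes, Stat4 and Runx3 all excluded a log2 fold change of the size of that of Ifng.

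**Figure D2:**
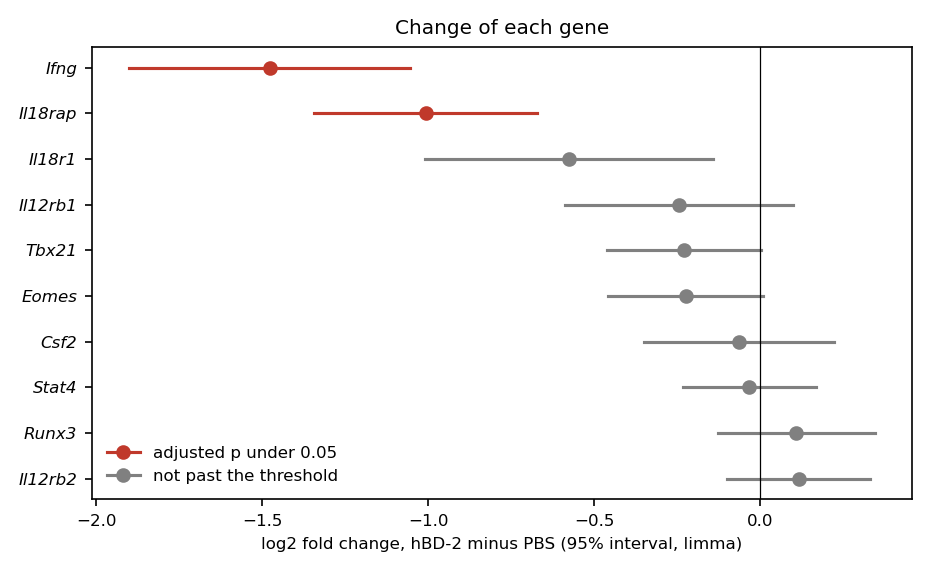
Log2 fold change of each gene, hBD-2 minus PBS (points), with the 95% interval of the limma fit, not adjusted for the number of genes (lines), in red where the adjusted p was under 0.05 and in grey otherwise. Ifng (-1.48) and Il18rap (-1.01) have the lowest points, and the other genes run from -0.58 (Il18r1) to 0.11 (Il12rb2). The intervals of Il18rap (-1.34 to -0.67) and Il18r1 (-1.01 to -0.14) overlap.

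Csf2 was at 4.60, 4.55, 4.37 and 4.50 log2 units on hBD-2 arrays 1 to 4, against 4.22, 4.49, 4.80 and 4.77 on PBS arrays 1 to 4. All hBD-2 values fell inside the range of the PBS values, and the PBS arrays spread more widely (4.51 ± 0.0985 with hBD-2 and 4.57 ± 0.271 with PBS, log2 fold change -0.07, 95% interval -0.35 to 0.22, limma adjusted p = 0.812). The sign turned without PBS replicate 3 (0.011), without PBS replicate 4 (0.0021) and without hBD-2 replicates 3 and 4 together (0.0039). Csf2 was the dimmest gene of the set, at percentile 37.0 of the mean level of all genes, where a change may not show in full. None of the 4 cytokine genes near Csf2 passed in the fit reported either. Il3, a growth factor of blood cells, was at 3.40 ± 0.378 with hBD-2 and 4.03 ± 0.306 with PBS (limma adjusted p = 0.0863), and Il13, a Th2 cytokine, at 5.94 ± 0.0604 with hBD-2 and 5.56 ± 0.199 with PBS (limma adjusted p = 0.0729). Il3 passed as lower with a trended and robust variance and without hBD-2 replicate 1 (limma adjusted p = 0.0269 and 0.0436). Il13 passed as higher with the filter on level and without PBS replicate 3 (limma adjusted p = 0.0345 and 0.0393). For the Th2 cytokine genes Il4 and Il5 the changes were -0.29 and 0.26 on the log2 scale, without passing (limma adjusted p = 0.153 and 0.187). Among 7 measured colony-stimulating factors and receptors of Csf2 and its relatives none passed. Csf3 and Csf2rb passed as higher without hBD-2 replicate 1 (limma adjusted p = 0.0323 and 0.0350). The shared receptor chain Csf2rb was at 5.71 ± 0.302 with hBD-2 and 5.28 ± 0.255 with PBS, the ligand-binding chain Csf2ra at 5.21 ± 0.306 with hBD-2 and 5.17 ± 0.258 with PBS, and Csf3, Csf3r and Il3ra differed by 0.32, 0.18 and -0.18 on the log2 scale (limma adjusted p from 0.150 to 0.905 for these 5).

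Whether Ifng changed more than the genes upstream of it, and more than the cytokine gene Csf2, was tested. The test used the difference between Ifng and each other gene on the same array. The change of Ifng differed from that of 7 of the 9 other genes, namely Tbx21, Eomes, Stat4, Il12rb1, Il12rb2, Runx3 and Csf2. For each of these 7 every hBD-2 array lay below every PBS array, and the exact permutation test gave p = 0.0286 (two-sided, 0.0367 after adjustment over 9 comparisons), a p no smaller being possible with groups of 4. Relative to Tbx21, Ifng fell by 1.25 on the log2 scale, with the difference between the genes at -1.76 ± 0.350 log2 units with hBD-2 and -0.52 ± 0.312 with PBS. Relative to the other 6 the shift ran from -1.59 (Il12rb2) to -1.23 (Il12rb1) log2 units.

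The change of Ifng was not shown to differ from that of either chain of the interleukin-18 receptor. The difference from Il18rap was -0.39 ± 0.497 log2 units with hBD-2 and 0.08 ± 0.226 with PBS, a shift of -0.47 (exact permutation test, two-sided, p = 0.114, adjusted p = 0.114). With limma fitted on these differences its 95% interval was -1.02 to 0.08 (limma adjusted p = 0.0954), so an equal change and a larger fall of Ifng are both inside it. Relative to Il18r1 the shift was -0.90 (exact permutation test, two-sided, p = 0.114, adjusted p = 0.114), while limma fitted on the differences called it (adjusted p = 0.00138). That limma fit gave each of these differences the same SE, 0.281. Its interval for Il18rap and its call of Il18r1 therefore do not rest on the spread of those genes. hBD-2 replicate 2 stood apart here, with the highest Ifng of the hBD-2 arrays beside the lowest Il18r1 and Il18rap.

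**Figure D3:**
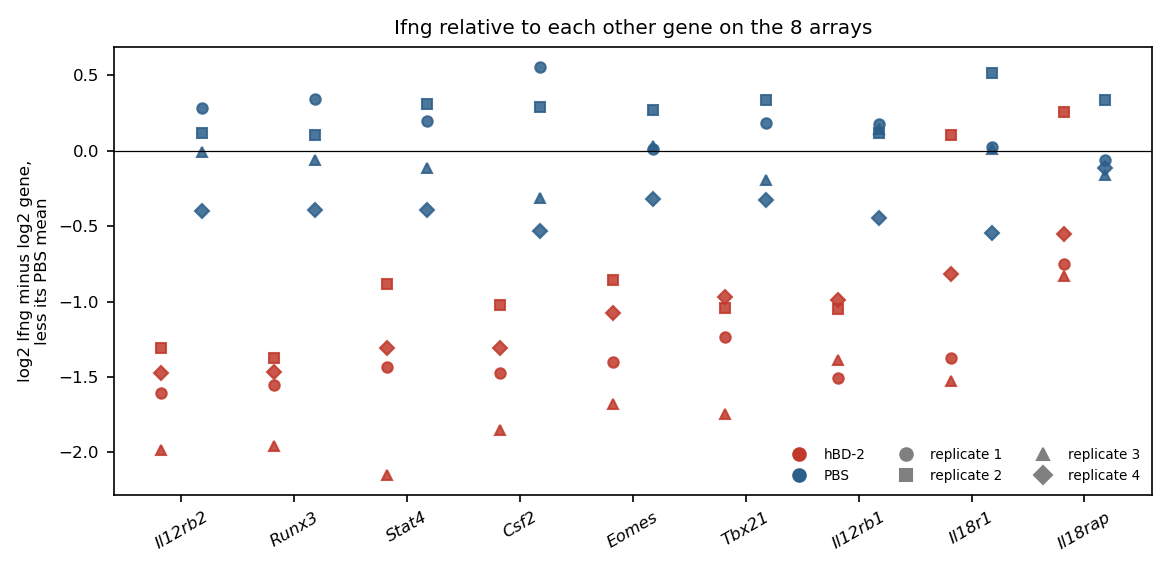
Log2 value of Ifng minus that of each other gene on every array (y axis, log2 units, with the PBS mean of each difference set to 0), for hBD-2 arrays (red, left of each pair) and PBS arrays (blue, right). For 7 genes all hBD-2 points lie below all PBS points, and for Il18r1 and Il18rap hBD-2 replicate 2 lies among the PBS points.

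Further genes of these pathways were described in 9 lists, with 102 of 119 genes measured, of which 10 were lower and none higher, against 3.66% and 0.8% of all genes. Their median log2 fold change was -0.09, against 0.02 over all genes. Of these 10, 7 belonged to the 15 measured type 1 cytokines, chemokines and receptors, whose median was -0.49. Ccl3, a chemokine of activated effector cells, was at 6.13 ± 0.282 with hBD-2 and 7.52 ± 0.304 with PBS (log2 fold change -1.40, limma adjusted p = 0.00122). The chemokine gene Ccl5 fell by 0.95, the perforin gene Prf1 by 0.95, the chemokine receptor gene Cxcr6 by 0.82, the granzyme gene Gzmb by 0.75, Tnf by 0.59 and the granule membrane gene Nkg7 by 0.49, all on the log2 scale (limma adjusted p from 0.00161 to 0.0441). The call of Tnf was lost in 6 of 8 fits that left out an array (limma adjusted p up to 0.117), that of Nkg7 in 5 (up to 0.0708) and that of Cxcr6 in 2, without hBD-2 replicate 4 or PBS replicate 1 (up to 0.0674). With quantile normalization, cyclic loess or the level trend removed, Tnf lost its call too, and without hBD-2 replicates 3 and 4 together Tnf, Nkg7, Cxcr6 and Gzmb all did (limma adjusted p up to 0.265). Cxcr3, a chemokine receptor gene that T-bet induces, was at 8.82 ± 0.0758 with hBD-2 and 9.01 ± 0.106 with PBS and Lta, the lymphotoxin gene, at 8.34 ± 0.0860 with hBD-2 and 8.55 ± 0.155 with PBS (limma adjusted p = 0.254 and 0.243).

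Of 16 other transcription factors of Th1 and CD8 cells, 3 fell, none rose and the median log2 fold change was -0.07. With a filter on level that kept genes from percentile 40 of the mean level upwards 7 of them passed, Irf1 and Ets1 as higher. With a trended and robust variance 10 passed, Irf1, Ets1 and Rel as higher. Over all genes 1541 of 11703 passed with the filter and 2033 of 19505 with that variance. Every hBD-2 array lay below every PBS array for 5 of the 16 and above for 4, namely Irf1, Ets1, Rel and Hlx, against 14.9% of all genes in either direction. The log2 fold changes of Ets1, Rel and Hlx were 0.30, 0.21 and 0.23. Prdm1, which encodes the effector regulator Blimp-1, was at 3.79, 4.64, 4.53 and 4.08 log2 units on hBD-2 arrays 1 to 4, against 5.81, 5.77, 5.34 and 5.81 on PBS arrays 1 to 4. The groups did not overlap, and its fall of 1.42 on the log2 scale (SE 0.183, limma adjusted p = 0.00183) was close to that of Ifng. Id2, an inhibitor of E proteins that favours effector cells, was at 8.70 ± 0.0677 with hBD-2 and 9.44 ± 0.0712 with PBS (log2 fold change -0.74, limma adjusted p = 0.00105). Bhlhe40, a factor needed for cytokine production by T cells, was at 9.73 ± 0.265 with hBD-2 and 10.3 ± 0.126 with PBS (log2 fold change -0.53, limma adjusted p = 0.0442), a call lost in 6 of 8 fits that left out an array (up to 0.123) and with each of 3 rescalings of the arrays. Irf1, an interferon-induced factor that acts on the interleukin-12 receptor genes, pointed the other way, at 10.5 ± 0.0103 with hBD-2 and 10.2 ± 0.0608 with PBS (log2 fold change 0.30, limma adjusted p = 0.0649), and passed in 5 of 9 other settings. Irf8, a further interferon-responsive factor, was at 8.16 ± 0.156 with hBD-2 and 8.55 ± 0.130 with PBS (limma adjusted p = 0.0649).

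Of 14 measured genes of interleukin-12 and interleukin-18 signalling none passed, with a median of -0.09. The stress gene Gadd45b, which interleukin-12 and interleukin-18 induce together, was at 7.75 ± 0.145 with hBD-2 and 7.34 ± 0.176 with PBS, and Jak2, a kinase of the interleukin-12 receptor, at 9.70 ± 0.0507 with hBD-2 and 9.42 ± 0.0260 with PBS (limma adjusted p = 0.0700 and 0.0821). Both passed as higher with quantile normalization, cyclic loess, the level trend removed, the filter on level or a trended and robust variance. Gadd45b also passed without hBD-2 replicate 1. Myd88 and Traf6, which relay the interleukin-18 signal, differed by -0.43 and -0.24 on the log2 scale (limma adjusted p = 0.0926 and 0.127). Myd88 passed as lower with a trended and robust variance (limma adjusted p = 0.0164) and without hBD-2 replicate 1 (limma adjusted p = 0.0431). Every hBD-2 array lay below every PBS array for Myd88 and Traf6, and above for Gadd45b and Jak2. The groups did not overlap in 14.9% of all genes in either direction.

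Of 19 measured interferon gamma response genes none was called in the limma fit. With a trended and robust variance 5 passed, Gbp2, Gbp3, Psmb9 and B2m as lower and Gbp4 as higher. With the filter on level 1 passed, Psmb9 as lower, and with quantile normalization repeated 1, Iigp1 as higher (limma adjusted p = 0.0465). Over all genes 2033 of 19505, 1541 of 11703 and 748 of 19505 passed in these settings, in the same order. The median of the 19 genes was -0.11 and their log2 fold changes ran from -0.28 to 0.25. The guanylate-binding protein gene Gbp2 was at 10.7 ± 0.196 with hBD-2 and 10.9 ± 0.0563 with PBS, the immunoproteasome gene Psmb9 at 9.39 ± 0.0809 with hBD-2 and 9.65 ± 0.0261 with PBS, Gbp3 at 8.32 ± 0.146 with hBD-2 and 8.59 ± 0.0569 with PBS and the immunity-related GTPase gene Iigp1 at 8.09 ± 0.0712 with hBD-2 and 7.83 ± 0.0737 with PBS (limma adjusted p from 0.106 to 0.156). Of 12 genes of the interferon gamma receptor and its JAK-STAT pathway none passed (median -0.09), against 3 with a trended and robust variance and 1 with the filter on level. The receptor chains Ifngr1 and Ifngr2 differed by -0.10 and 0.22 log2 units, and the STAT gene Stat3, the phosphatase gene Ptpn6, the feedback inhibitor gene Socs2 and the phosphatase gene Ptpn1 by -0.30, -0.37, -0.42 and -0.19 (limma adjusted p from 0.0738 to 0.576 for these 6). Of 13 measured regulators that oppose the Th1 programme none passed (median 0.04), against 1 with a trended and robust variance. Lef1, Klf2 and Foxo1, factors of naive cells, differed by 0.28, 0.27 and 0.18 log2 units, and Il4ra, the interleukin-4 receptor gene, by -0.20 (limma adjusted p from 0.113 to 0.260).

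**Figure D4:**
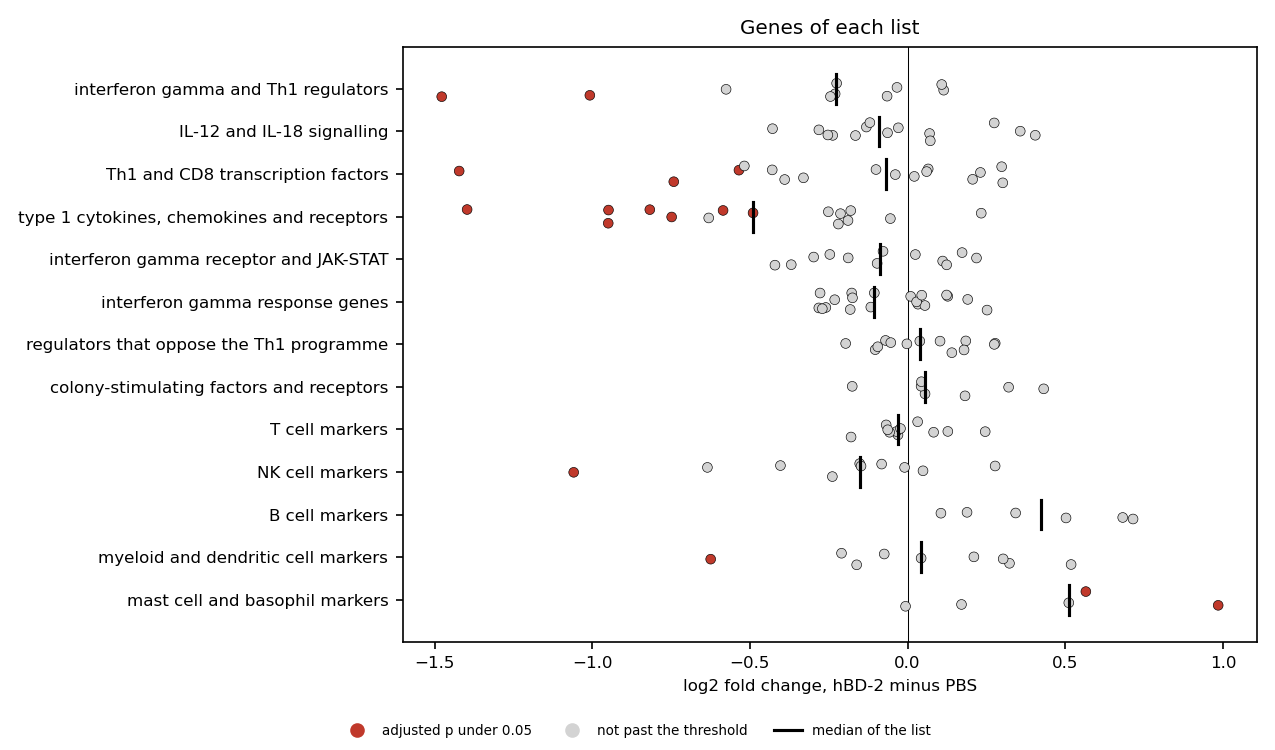
Log2 fold changes, hBD-2 minus PBS (x axis), of the genes of each list (rows, 1 point a gene, spread vertically for sight only), in red where the adjusted p was under 0.05, with the median of the list as a black line. The called genes among the pathway lists lie in the rows of type 1 cytokines (7) and transcription factors (3), and the interferon gamma response genes lie between -0.28 and 0.25.

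Markers of other cell types moved with some of these results, and their part was not tested. Over all genes 3.66% were called lower and 0.8% higher. NK cells, which express many of the same genes, had 1 of 10 measured markers lower, the granzyme gene Gzma, which cytotoxic T cells express too (5.82 ± 0.244 with hBD-2 and 6.87 ± 0.297 with PBS, limma adjusted p = 0.00451). The receptor genes Klrk1 (6.41 ± 0.149 with hBD-2 and 6.81 ± 0.198 with PBS, log2 fold change -0.40, limma adjusted p = 0.0797) and Klre1 (4.68 ± 0.299 with hBD-2 and 5.32 ± 0.40 with PBS, log2 fold change -0.63, limma adjusted p = 0.0900) did not pass. Klrk1 passed as lower with the replicate block, with the filter on level and with a trended and robust variance, and Klre1 with the last of these, which made the NK count 2, 2 and 3 in these settings. Over all genes 857 of 19505, 1541 of 11703 and 2033 of 19505 passed in them. Klrk1 also passed without PBS replicate 3, and Klre1 without hBD-2 replicate 1 and without PBS replicate 2. The summed linear level of the NK list was 299 to 337 on hBD-2 arrays and 383 to 441 on PBS arrays, without overlap. Its brightest genes, Klrk1, Gzma and Styk1, weigh most in that sum, and Styk1 went the other way (log2 fold change 0.28, limma adjusted p = 0.397). The mean log2 level, in which all markers weigh alike, was 4.30 to 4.55 with hBD-2 and 4.61 to 4.72 with PBS. The median log2 fold change of the list was -0.15. The defining NK genes Ncr1 (2.89 ± 0.227 with hBD-2 and 2.97 ± 0.102 with PBS), Klrb1c (3.01 ± 0.364 with hBD-2 and 2.96 ± 0.157 with PBS) and Tyrobp (3.71 ± 0.392 with hBD-2 and 3.72 ± 0.174 with PBS) were near or below the lower quartiles of the arrays in both groups. Mast cell and basophil markers were higher in 2 of 5 members, Cpa3 and Fcer1a, with a summed level of 92.1 to 165 on hBD-2 arrays and 71.5 to 75.3 on PBS arrays, and Fcer1a lost its call in 4 of 8 fits that left out an array (limma adjusted p up to 0.0940). Of 6 B cell markers none passed, and their summed level was 152 to 497 on hBD-2 arrays and 159 to 288 on PBS arrays, replicates 2 and 4 being the higher ones in both groups. Of 9 myeloid and dendritic cell markers 1 was lower, the integrin gene Itgam, which lost its call in 7 of 8 fits that left out an array (up to 0.126), and the summed level was 119 to 157 on hBD-2 arrays and 127 to 147 on PBS arrays.

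Likeness was searched among 11232 genes whose mean level reached percentile 40 of all genes, leaving out predicted and unnamed genes, microRNA and snoRNA genes, antigen receptor segments, olfactory receptor genes and the 10 genes themselves. Those whose log2 values followed Ifng most closely over the 8 arrays were Cd82, Nme2, Chsy1, Tubb4b, Sdhc and Cope, with Pearson correlations of 0.984 to 0.990. Nipbl, Akap13 and Erbin ran most nearly opposite, at -0.986 to -0.985. These correlations span both groups and all points share the treatment, so they describe how the arrays are ordered. Cd82, a tetraspanin gene, was at 9.70 ± 0.159 with hBD-2 and 10.1 ± 0.0949 with PBS (limma adjusted p = 0.0406), a smaller log2 fold change (-0.43) than that of Ifng. For Csf2 the closest genes were Fasl, Cass4, Rab3a, Tbc1d4, Tank and Tmem81 (0.917 to 0.938) and the most nearly opposite Ddx59, Camsap3 and Fem1al (-0.933 to -0.904), none of them called (limma adjusted p of 0.448 or more). Fasl, the ligand gene of the death receptor Fas and the nearest to Csf2, was at 5.58 ± 0.0641 with hBD-2 and 5.64 ± 0.224 with PBS.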

How the data were processed

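RNA of mouse splenic T cells was measured on 8 arrays, 4 with hBD-2 and 4 with PBS, grouped by their labels. The authors deposited 1 table of log2 values with 22203 probe sets. Per the submitters' processing notes, oligo and RMA (background correction, normalization between arrays and summary per probe set) were used, with versions and annotation build not given in the sources used here. RMA draws dim signals towards a floor, which understates their changes. No scanner files or detection calls were used here, and the number of arrays limits the precision.

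The platform's annotation gave 19572 probe sets a single symbol and listed none with several, and 2631 probe sets not listed stayed unnamed. All 19572 gene identifiers were found in a gene table of GRCm38.p6 and no symbol changed. For 55 genes with several probe sets the highest mean was kept, which left 19505 genes, none filtered out.

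hBD-2 was compared with PBS in limma 3.58.1 (R 4.3.3, lmFit and eBayes, no block), by two-sided tests adjusted after Benjamini-Hochberg over all genes. For this comparison, a test on simulated data of 19505 genes, with 50 seeded changes of each size, called 10% of 1.3-fold, 48% of 1.5-fold, 96% of 2-fold and 100% of 3-fold changes. Of its 137 calls 10 were false. The noise was normal and independent between genes. Changes were seeded only in genes from percentile 40 of the mean level upwards, so these shares do not cover dimmer genes such as Csf2. Same-numbered arrays were not taken as pairs: their deviations correlated above 0.1 in 2 of 4 pairs.

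The genes, the 14 lists (144 of 164 entries matched) and the rules for names were chosen with earlier results of these data known. Named are all 10 genes, the 4 list genes with the smallest p and all called ones, all neighbours, chosen T and NK cell markers, and the genes most like Ifng and Csf2. Irf1, Cxcr3, Lta, Ifngr1, Ifngr2, Csf2ra, Cpa3, Fcer1a, Itgam, Klrk1 and Klre1 lie outside this rule, picked once their values had been seen. So do Ets1, Rel, Hlx, Gbp4, B2m, Cd247, Cd28 and Styk1. Alternatives were a replicate block, 3 rescalings, a filter on level, other variance models, array weights, all probe sets and left-out arrays.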

Additional observations from a re-analysis of the deposited data

Results flagged for a closer look

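In all, 4 values stood farther from the other 3 arrays of their group than Dixon's criterion allows, among 74 genes in 2 groups each, and chance flags about 1 in 20 groups. Prdm1 on PBS replicate 3 was at 5.34 log2 units, with the other PBS arrays at 5.77 to 5.81. Il1rl2 on hBD-2 replicate 2 was at 3.82, with the other hBD-2 arrays at 4.27 to 4.34, and on PBS replicate 1 it was at 4.90, with the other PBS arrays at 4.29 to 4.37. Il3ra on hBD-2 replicate 3 was at 6.46, with the other hBD-2 arrays at 6.90 to 6.95. No value of the 10 genes themselves stood out in this way.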

How the results depend on the processing

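Of the 10 genes, 2 were past the threshold in the fit reported, 2 to 3 when an array was left out (the third being Il18r1), 3 with the replicate block and 1, Ifng, without hBD-2 replicates 3 and 4 together, a fit with fewer arrays. The 869 genes past the threshold became 1541 with the filter on level, which tests fewer genes, 2033 with a trended and robust variance, 128 without hBD-2 replicates 3 and 4 together, and 312 (without PBS replicate 1) to 1396 (without hBD-2 replicate 1) when an array was left out; the cause was not tested. The labels tie no number to a mouse and 2 of 4 same-numbered pairs correlated above 0.1, so the arrays were not taken as pairs; 5 of 8 arrays correlated best with their own number, a hint from the data and not from the design. The replicate block left 857 genes past the threshold. Signs turned for Stat4 (0.047, 0.047 and 0.039 in the 3 rescalings, and -0.077 to 0.0086 over the fits without an array), Csf2 (-0.18 to 0.011 without an array, 0.0039 without hBD-2 replicates 3 and 4) and Il12rb1 (0.033 without them). Of 169 alternative values of the 10 fold changes, 157 kept direction and side of the threshold. The 7 genes from which Ifng differed stayed 7 in the 3 rescalings. Limma on the differences called 8, Il18r1 being added, with or without the replicate block. Without the block that fit gave each of these differences the same SE. Its call of Il18r1 and its interval for Il18rap therefore do not rest on the spread of those genes. Fewer arrays cannot reach the threshold of the exact test, so those fits give differences only, all of unchanged direction. Depth does not apply, and dim genes such as Csf2 could not be tested under the filter on level.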
